A study of Ovis aries with 12 samples.

Results

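The array held 468 probes named as the predicted p5 or p3 arm of a miRNA hairpin, under 339 names, and 168 of them, under 94 names, read at least 32 units on at least 3 of the 12 arrays. These 168 probes are described here, out of 3091 probes with a value and 1122 that passed the same level. They were chosen by name (a lower-case "mir-" with the ending -p5 or -p3, without 205 such probes set aside by hairpin number) and by level, so the level itself is no finding. Of the 468 probes, 261 read at least 32 units on no array and 17 on 2 arrays, whereas 9 of the 168 reached the level on exactly 3 arrays and 103 on all 12. Just inside the limit, the last of the 3 highest arrays read 33 units for mir-324-p5 and mir-664-p3 and 34 for mir-328-p5, and just outside it 30 for mir-4426-p3 and 31 for mir-1957a-p5 and mir-3557-p5.

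Total RNA came from the left ventricle of Merino sheep that served as controls, with no treatment given in the labels, and was hybridised in a single colour, 1 animal to an array. The ages were F91 (fetuses of 91 days gestation), F140 (fetuses of 141 days by the labels), P5 (lambs of 5 days) and P173 (lambs of 173 days), with 3 arrays each. All animals were female except F91 replicate 3. Every P5 lamb was a twin, as was F140 replicate 2, so that age and twinning cannot be told apart at P5. A value is given in units, the linear normalised signal of the deposited table, and 32 units was the limit used for a signal above background. Signal differs between probes for reasons of chemistry, so levels of different probes are not set against each other, and because whole ventricle was used, fewer cells of a type and less RNA per cell cannot be told apart.

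A miRNA is cut from a hairpin, a stretch of RNA folded back on itself, and each side of the stem can give a mature strand (the 5p and the 3p arm). Usually 1 arm is loaded into the silencing complex and kept while the other is degraded, and bases 2 to 8 of the mature strand, the seed, decide which messages it can pair with. Databases that annotate only 1 arm leave the other to prediction, and probes for such predictions were placed on this array beside the annotated miR, with variants of 1 to 3 substituted bases. In the heart, miR-1, miR-133a, miR-208 and miR-499 are known as muscle miRNA, and the miR-15 family is known for restraining the cell cycle. The annotated markers fitted the tissue label, except that miR-208a and miR-208b were under 32 units at some ages. miR-133a lay between 8750 and 12485 units at F91, 8800 and 12097 at F140, 13910 and 16290 at P5, and 13434 and 17987 at P173, while the liver marker miR-122 stayed between 4 and 66 units over all arrays and the skeletal muscle marker miR-206 at 9 units or less. Of the 6 heart muscle markers, miR-208b read 0 to 8 units and miR-208a 0 to 1 units at F91, and the other 4 were above 32 units on every array.

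The target sequences on the array went against the name of an opposite arm for many of these probes. They are RNA targets as the array lists them, 5′ to 3′, with the seed (bases 2 to 8) in capitals, and each is shown with the annotated miR of its hairpin because these probes changed over age.
mir-15b-p3: uAGCAGCAcaucaugguuag
miR-15b-5p: uAGCAGCAcaucaugguuuuu
mir-99b-p5: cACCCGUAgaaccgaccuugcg
miR-99b: cACCCAUAgaaccgaccuugcgu
mir-181b-2-p3: aACAUUCAuugcugucggaa
miR-181b: aACACUCAuugcugucggug
mir-16a-p5: aGCAGCACguauauauuggaguu
miR-16a: uAGCAGCAcguaaauauuggaguu
mir-27b-p3: uUCACAGUggcuaauuucugug
miR-27b: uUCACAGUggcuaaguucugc
mir-451-p3: gCUACCAUuacugaguuua
miR-451: aAACCGUUaccauuacugaguuu
The probe called mir-15b-p3 carried the annotated 5p strand with its seed, mir-27b-p3 carried miR-27b with its seed, and mir-451-p3 held the second part of miR-451 and began inside it. The seed of mir-16a-p5 was that of miR-16a moved by a single base, and the annotated miR-181b and miR-99b targets shown here are themselves variants with a substituted base inside the seed.

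Of the 94 names, 42 shared at least 16 identical bases in a row with an annotated miR of the same hairpin, and 5 more lay on it over at least 16 bases with at most 3 mismatches. A further 15 had an annotated miR of the hairpin on the array but another sequence, and 32 had none. Of the 15, mir-2887-2-p5 and mir-504-p5 still shared a run of 14 bases with the annotated miR of their hairpin, so the limit of 16 decides their class. Counting annotated miR of any hairpin, 57 of the 94 names lay on one. By probe these classes held 65, 8, 25 and 70 of the 168. The names in the first 2 classes thus carry an annotated strand of their hairpin rather than an arm left to prediction. For mir-125b-2-p3 this strand was the annotated miR-125b-2-3p (a run of 18 bases, against 4 with miR-125b). Only 30 probes had the exact sequence of a species and 138 carried substitutions; 50 were named for mouse, 29 for human, 26 for cattle and 6 for sheep. They were 16 to 27 bases long (median 19), with a GC content of 21.7% to 88.2% (median 52.5%, against 47.8% over annotated miR above the level).

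**Figure D1:**
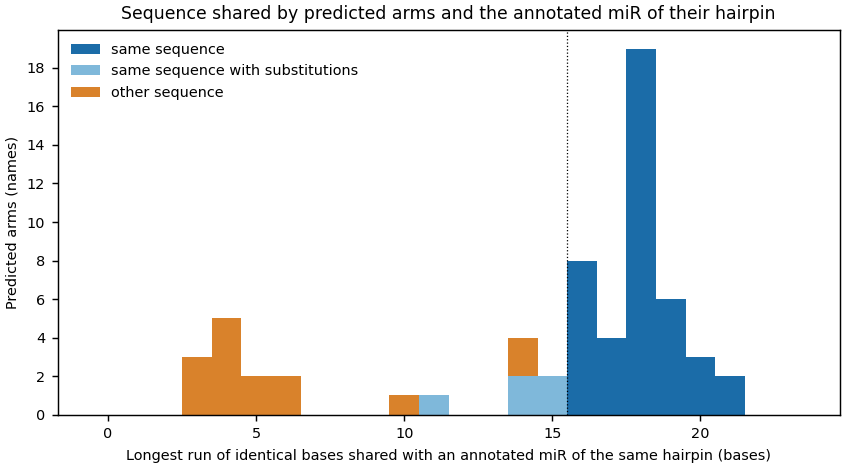
Longest run of identical bases (x axis, in bases) that each of the 62 predicted arm names with an annotated miR of its hairpin shares with it, as a count of names (y axis). The dotted line stands at the 16-base limit; the 42 names of the same sequence lie to its right and the 15 of another sequence to its left.

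Where p5 and p3 probes of a hairpin were both above the level, a probe of each arm overlapped as well. In all 18 such hairpins, the best-matching p5 and p3 probe shared a run of 13 to 18 identical bases, at least 16 in 14 of them. Other probes of a hairpin could come from another stretch, as the exact mir-6236-p3 probe did from mir-6236-p5. The longest antiparallel run of base pairs between any p5 and p3 probe of a hairpin was 3 to 8. A stem would join true arms by pairing, and annotated 5p and 3p pairs on the same array had a median run of 8.0 pairs (5 to 18). Over the 50 pairs of predicted arms and partners in the design it was 5.0, but in 36 of them the partner name held the sequence of the predicted arm. Over 21 pairs in which no probe of the partner name held that sequence, the median was 7.0 (3 to 22). The longest run was that of mir-133c-p5, which paired with miR-133c over 22 bases. The overlap is shown here in capitals, as the run that p5 and p3 share.
mir-6240-p5: aUGUGAUUUCUGCCCAGUg
mir-6240-p3: UGUGAUUUCUGCCCAGU
mir-4454-p5: aAUCCGAGUCACGGCACca
mir-4454-p3: cgaAUCCGAGUCACGGCAC
miR-4454: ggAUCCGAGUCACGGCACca
mir-5100-p5: gAUCCCAGCGGUGCCUCca
mir-5100-p3: ucguAUCCCAGCGGUGCCUC
miR-5100: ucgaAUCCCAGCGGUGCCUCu
The p3 probe of mir-6240 lay wholly within the p5 probe. For mir-4454 and mir-5100, the p5 probe, the p3 probe and the annotated miR held the same 16 bases (the run shared by all 3 is in capitals). The p5 and p3 probes shown here are therefore not separate observations.

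The first comparison asked which of the predicted arms varied over the 4 ages. Of the 94 names, 15 passed the F-test over the ages (limma, Benjamini-Hochberg over all 3091 probes, adjusted p at most 0.05), and 18 of the 168 probes. The share called was 8.7% over all probes and 22.5% over the 1122 probes that passed the same level, and the difference from the share among the predicted arms was not tested. At an unadjusted p under 0.05, 36 of 94 names passed, against 531 of the 1122 probes above the level and 643 of all 3091. By class, 10 of 42 names of the same sequence and 3 of 5 of the same sequence with substitutions passed, against 1 of 15 of another sequence and 1 of 32 without an annotated miR. Leaving out P5 replicate 1 or P5 replicate 3 left 8 names past the test, and leaving out P5 replicate 2, P173 replicate 1 or P173 replicate 2 left 9.

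Among these names, 4 with the sequence of a main heart or growth miRNA fell over the whole span, P173 against F91. A further name with the sequence of an annotated miR, mir-466i-p5, fell too and is given below. mir-15b-p3, of the miR-15 family, read 4325, 5260 and 4286 units at F91, 950, 1105 and 1048 at F140, 1085, 1168 and 1675 at P5, and 332, 213.5 and 325 at P173. The 3 arrays of P173 lay below all others and those of F91 above all others, with F140 and P5 close together. It was 16.2-fold lower at P173 than at F91, a log2 change of -4.01 ± 0.28 (SE; adjusted p = 3.26e-06, limma over 12 arrays), and the steps F140 against F91 (-2.16 ± 0.28, adjusted p = 0.00134) and P173 against P5 (-2.17 ± 0.28, adjusted p = 0.00146) passed on their own. No array decided these calls, since the highest adjusted p with any array left out was 7.81e-05 for the whole span, 0.0129 for F140 against F91 and 0.0133 for P173 against P5.

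mir-181b-2-p3, which holds miR-181b, read 790, 955 and 839 units at F91, 356, 349 and 289 at F140, 209, 248 and 159 at P5, and 118, 131 and 159 at P173. Every array of F140 lay below every array of F91, and P5 and P173 met at 159 units. The change P173 against F91 was -2.67 ± 0.30 on the log2 scale (SE; 6.36-fold lower; adjusted p = 7.1e-05, limma). The step F140 against F91 (-1.38 ± 0.30, adjusted p = 0.0175) lost its call without F140 replicate 1, F140 replicate 3 or F91 replicate 2, with adjusted p-values of 0.0578 to 0.064.

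mir-99b-p5, which holds miR-99b of the miR-99 and miR-100 family, read 987.5, 1144 and 1183 units at F91, 542, 490 and 488 at F140, 422, 459 and 377 at P5, and 198.5, 209 and 281 at P173. The arrays of successive ages did not overlap. It was 4.85-fold lower at P173 than at F91 (log2 change -2.28 ± 0.27, SE; adjusted p = 0.000103, limma). F140 against F91 gave -1.12 ± 0.27 (adjusted p = 0.0255) and lost the call without any array of F140 or without F91 replicate 2 or F91 replicate 3 (adjusted p of 0.0645 to 0.0928), and also when a trend of the signal on GC content was removed (adjusted p = 0.569).

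mir-16a-p5, the sequence of miR-16a with substitutions, read 11674, 6661 and 6734 units at F91, 6185, 3695 and 5747 at F140, 4293, 5076 and 5480 at P5, and 2953, 1627 and 3706 at P173. F91 lay above all other arrays and P173 below those of P5, while F140 overlapped with both P5 and P173. P173 against F91 gave a log2 change of -1.63 ± 0.34 (SE; 3.09-fold lower; adjusted p = 0.0083, limma). mir-320d-2-p3, which holds miR-320d, a miRNA made without the usual first cut of the hairpin, passed at F140 against F91 but not over the whole span. It read 566, 660 and 568 units at F91, 256, 276 and 338 at F140, 232, 273 and 292 at P5, and 267, 356 and 371 at P173, so that the 3 later ages lay below F91 without overlap. F140 against F91 gave -1.05 ± 0.28 (adjusted p = 0.0449, limma), a call that held when F91 replicate 1, P173 replicate 1 or P173 replicate 2 was left out but not without any of the other 9 arrays (adjusted p of 0.059 to 0.165). With the replicate number as a block the adjusted p was 0.0539.

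A second set was higher at F140 than at F91. mir-27b-p3 read 69, 36 and 20 units at F91, 700, 174 and 182 at F140, 105, 156 and 70 at P5, and 137, 94 and 172 at P173. F140 stood above all other arrays, F140 replicate 1 by far the most. The change F140 against F91 was 2.93 ± 0.59 on the log2 scale (SE; 7.62-fold; adjusted p = 0.013, limma) and missed the threshold without F140 replicate 1 (adjusted p = 0.0653). mir-451-p3 read 77, 27 and 25 units at F91, 1182, 300 and 259 at F140, 83, 170 and 377 at P5, and 48, 143.2 and 317 at P173. Here too F140 replicate 1 was the highest array, F140 did not overlap with F91, and both lamb ages ranged widely. Its change F140 against F91 was 3.59 ± 0.78 (SE; 12.1-fold; adjusted p = 0.0188, limma), with adjusted p-values of 0.0604 to 0.0966 without F140 replicate 1, F91 replicate 2 or F91 replicate 3.

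miR-451 is best known from red blood cells, and the summed markers of several cell types are given here as ranges, untested. The 3 annotated markers (miR-451, miR-144 and miR-486) summed to 3565 to 5169 units on the arrays of F140, against 801 to 1976 on those of F91 (P5 3288 to 5598, P173 4907 to 7037). Of the 3, miR-144 was at or under 2 units at F91 and at 17 to 47 units at F140. Of the other lists, the 6 heart muscle markers summed to 43912 to 56338 units at F140 against 23466 to 25187 at F91, and the endothelial miR-126 read 6044 to 8703 against 923 to 4211. The 4 leukocyte markers summed to 300 to 489 units at F140 against 235 to 304 at F91, and the smooth muscle sums overlapped. The 3 fibroblast markers summed to 4592 to 6994 units at F140 against 7598 to 10756 at F91, but they did not move together. Only miR-214 was lower, at 1491 to 2893 units at F140 against 5539 to 10228 at F91. By contrast miR-21 read 765 to 1043 against 47 to 258, and miR-199a 2248 to 3210 against 481 to 2382. The part of the cell content in the change of mir-451-p3 was not tested. Also higher at F140 was mir-708-p5, with the sequence of miR-708, which read 70, 58 and 36 units at F91, 191, 146 and 159 at F140, 107, 77 and 54 at P5, and 113, 66 and 125.4 at P173. Its contrast F140 against F91 passed (log2 change 1.64 ± 0.43, SE; adjusted p = 0.0386, limma) although the F-test over the ages did not (adjusted p = 0.104).

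In all, 4 names were higher and 5 lower at F140 than at F91, of 94. The shares called over all 3091 probes were 3.85% higher and 1.68% lower (5.53% either way), and over the 1122 probes above the level 9.18% higher and 4.55% lower (13.7% either way). The median log2 change of the 94 was -0.44, against 0.07 over all probes and 0.12 over those above the level. The replicate numbers of F91 and F140 deviated together (same-numbered correlations of 0.405 to 0.481), and with the number as a block the count stayed at 9 in the fit over 4 ages, but was 0 in a fit of these 2 ages alone, where 1 name passed without the block. The count was 1 without F140 replicate 1, 2 without F91 replicate 2, 3 without F91 replicate 3, 5 without F140 replicate 2 or F140 replicate 3, and 17 without F91 replicate 1.

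**Figure D2:**
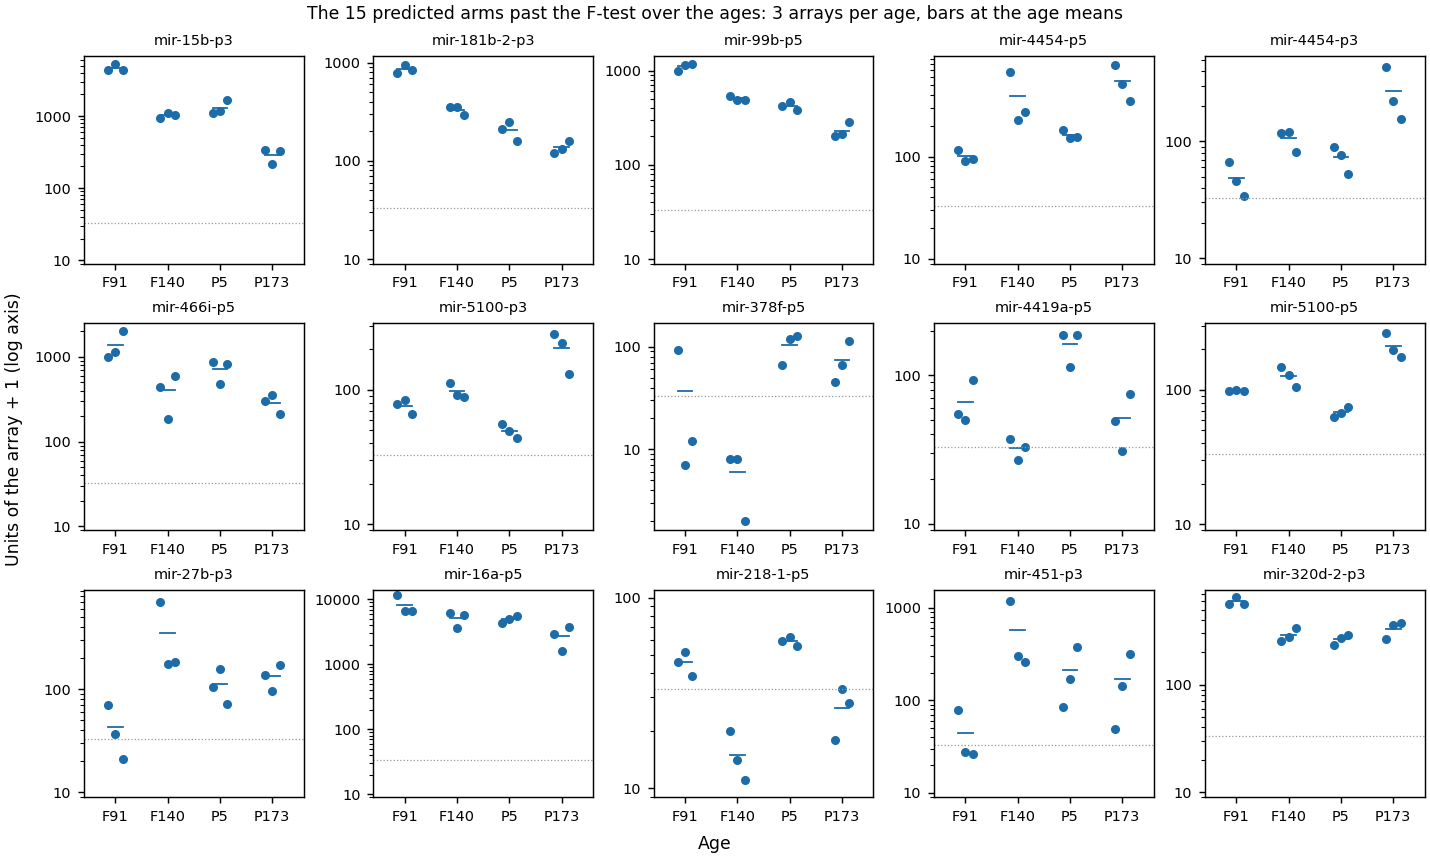
Units plus 1 (y axis, log scale) of the 15 predicted arms past the F-test, by age (x axis), with a point for each of the 3 arrays and a bar at each age mean; the dotted line marks 32 units. mir-15b-p3, mir-181b-2-p3 and mir-99b-p5 stand lowest at P173, mir-27b-p3 and mir-451-p3 highest at F140, and mir-4454 and mir-5100 highest at P173.

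Around birth 3 names passed the test, all higher at P5 than at F140, and none lower (limma, adjusted p over all probes). In either direction 32 of 94 had an unadjusted p under 0.05, against 312 of the 1122 probes above the level and 419 of all 3091. The shares called were 0.841% higher and 0.971% lower over all probes (1.81% either way), and 2.23% and 2.5% over those above the level (4.72% either way). The median of the 94 log2 changes was 0.50, against a median at 0.00 over all probes, and 65 of 94 lay above 0. The count of 3 was 0 without F140 replicate 1, F140 replicate 2, P5 replicate 1 or P5 replicate 3, 1 without F140 replicate 3, P5 replicate 2 or P173 replicate 2, 7 without F91 replicate 3 and 11 without F91 replicate 1.

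mir-378f-p5, a substituted form of miR-378f, a family tied to energy metabolism in muscle, read 92, 6 and 11 units at F91, 7, 7 and 1 at F140, 65, 119 and 125.2 at P5, and 44, 65 and 112 at P173. It was under 32 units on every array of F140 and above it on every array of P5. P5 was at least 3.09-fold higher than F140, counted against 32 units (fitted log2 change 4.7 ± 0.96, SE; adjusted p = 0.0271, limma). The adjusted p was 0.0515 to 0.135 without any array of F140 or P5 or without P173 replicate 2, and 0.219 with all values under 32 units set to 32.

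mir-4419a-p5, named from human and with no annotated miR on the array, read 54, 49 and 92 units at F91, 36, 26 and 32 at F140, 186, 113 and 186 at P5, and 48, 30 and 74 at P173. Each array of P5 stood above each array of the other ages. P5 was 5.06-fold higher than F140 (log2 change 2.34 ± 0.46, SE; adjusted p = 0.0234, limma), a call lost without any array of F140 or without P5 replicate 1 or P5 replicate 3 (adjusted p of 0.0561 to 0.123) and after the GC trend was removed (adjusted p = 0.104). mir-218-1-p5 read 45, 51 and 38 units at F91, 19, 13 and 10 at F140, 58, 61 and 55 at P5, and 17, 32 and 27 at P173. Only F91 and P5 lay above 32 units on all arrays. P5 was at least 1.81-fold higher than F140 (fitted log2 change 2.09 ± 0.49, SE; adjusted p = 0.046, limma), a call that held when F91 replicate 1, F91 replicate 3 or P173 replicate 1 was left out but not without any of the other 9 arrays (adjusted p of 0.0503 to 0.17). With the replicate block the adjusted p was 0.0669.

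After birth, 2 names were higher and 1 lower at P173 than at P5, with shares called of 0.906% higher and 0.679% lower over all probes (1.59% either way), and 2.41% and 1.78% over those above the level (4.19% either way). The median log2 change was -0.25, against -0.16 over all probes. Besides mir-15b-p3, the calls were the p5 and p3 probes of mir-5100, a hairpin whose sequence resembles a transfer RNA. mir-5100-p3 read 78, 83 and 65 units at F91, 112, 91 and 87 at F140, 55, 48 and 43 at P5, and 261, 222 and 131 at P173. mir-5100-p5 read 97, 98 and 97 units at F91, 146, 128 and 104 at F140, 62, 66 and 73 at P5, and 265, 197 and 175 at P173.

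Both probes were lowest at P5 and highest at P173, and P5 overlapped with no other age. P173 against P5 gave a log2 change of 2.02 ± 0.38 for mir-5100-p3 (SE; adjusted p = 0.0162, limma) and of 1.64 ± 0.34 for mir-5100-p5 (adjusted p = 0.0216). Without P173 replicate 1, P173 replicate 2 or any array of P5 these calls were lost, with adjusted p-values of 0.0537 to 0.0854 for the p3 and 0.0537 to 0.106 for the p5 probe, and the count of the 3 names was then 1. The count was 5 without P173 replicate 3, and 1 with the GC trend removed, where the log2 change was 1.92 for the p3 (adjusted p = 0.0569) and 1.52 for the p5 probe (adjusted p = 0.126). With the replicate block it was 5, as mir-4454-p3 (log2 change 1.80, adjusted p = 0.0355) and mir-4454-p5 (1.67, adjusted p = 0.0404) passed too.

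Over the whole span, P173 against F91, 3 names were higher and 6 lower. The shares called were 3.24% higher and 3.53% lower over all probes (6.76% either way), and 8.47% and 9.36% over those above the level (17.8% either way), and the median log2 change was 0.20 for the 94 names, against 0.01 over all probes. The count of 9 names was 15 without F91 replicate 1. The 3 higher names came from 2 hairpins, mir-4454 and mir-5100. mir-4454-p5 read 115, 90 and 93 units at F91, 664, 227 and 271 at F140, 180.7, 152 and 154.5 at P5, and 783, 506 and 349 at P173. mir-4454-p3 read 66, 45 and 33 units at F91, 116, 119 and 81 at F140, 89, 75 and 52 at P5, and 430, 221 and 156 at P173.

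Both mir-4454 probes had their lowest mean at F91 and their highest at P173, with no overlap of these ages, and P5 lay below F140 on all arrays of the p5 probe. P173 against F91 gave 2.39 ± 0.42 for mir-4454-p5 (SE; adjusted p = 0.00253, limma) and 2.41 ± 0.45 for mir-4454-p3 (adjusted p = 0.004). mir-4454-p5 also rose at F140 against F91 (1.80 ± 0.42, adjusted p = 0.0251), a call that was lost without F140 replicate 1, F91 replicate 2 or F91 replicate 3 (adjusted p of 0.064 to 0.12). mir-5100-p3 gave 1.39 ± 0.38 over the span (adjusted p = 0.0393), a call that held when F140 replicate 1 or P173 replicate 3 was left out but not without any of the other 10 arrays (adjusted p of 0.0506 to 0.161).

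Lower over the span, besides the 4 names described, were mir-466i-p5 and mir-558-p5. mir-466i-p5, named for a cluster of mouse hairpins rich in repeats of u and g, read 995, 1149 and 2035 units at F91, 438, 184 and 589 at F140, 867, 482 and 825 at P5, and 298, 357 and 213 at P173. F91 lay above all other arrays and P173 below those of P5. P173 against F91 gave -2.23 ± 0.44 (SE; adjusted p = 0.00575, limma) and F140 against F91 -1.87 ± 0.44 (adjusted p = 0.0254), the second lost without F140 replicate 1, F140 replicate 2, F91 replicate 2 or F91 replicate 3 (adjusted p of 0.0665 to 0.105). mir-558-p5 is a human name without an annotated miR of its own hairpin on the array, but all its 17 bases are the first 17 of mir-466i-p5 and lie in the annotated miR-466i-5p, so the 2 names are not separate observations. It read 377, 675 and 1166 units at F91, 202, 105 and 325 at F140, 488, 278 and 594 at P5, and 201, 244 and 99 at P173. Its change P173 against F91 was -1.98 ± 0.52 (adjusted p = 0.0345) while its F-test over the ages missed the threshold (adjusted p = 0.0601).

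By function, the hairpins whose annotated miR is a main heart or growth miRNA held 33 of the 94 names. Of these, 8 passed the F-test (with 8.7% called over all probes and 22.5% over those above the level), and P173 against F91 gave 4 lower, 0 higher and a median log2 change of 0.33 (mir-15b-p3, mir-16a-p5, mir-99b-p5 and mir-181b-2-p3 were the 4). The hairpins known to overlap transfer RNA, ribosomal RNA or other abundant RNA held 9 names, of which 4 passed the F-test. At P173 against F91, 3 of them were higher, with a median of 1.38 and all 9 above 0. The shares called in that contrast were 3.24% higher and 3.53% lower over all probes, and 8.47% and 9.36% over those above the level. Of the repeat-rich group around mir-466, 6 names, 1 passed the F-test, and all 6 were below 0 at F140 against F91 (median -1.06) and at P173 against F91 (median -0.92). In that group mir-669e-p3 shared a run of 20 bases with an annotated miR-574 probe. Of the 1122 probes above the level, 602 were above 0 at F140 against F91 (median 0.12) and 639 at P173 against F91 (median 0.24). The lists overlap in sequence within themselves, so their counts are descriptions.

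The second comparison, added after the data were seen, set each predicted arm beside an annotated miR with its own sequence, in changes over age only. Of 46 such pairs, 23 with the same seed, none passed the test for a different course over the 4 ages. The test was a limma F-test on the difference of log2 values within each array. Its p was adjusted over 69 pairs that include 23 annotated 5p and 3p pairs. At an unadjusted p under 0.05 there were 2 of 46, and over all 69 pairs the share called was 5.8%. The count was 3 without F91 replicate 1, 5 on the scanner values, 4 with values under 32 units set to 32, and 1 with a pseudocount of 16.

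Values are given for names called above. miR-15b-5p read 3609, 6226 and 4697 units at F91, 1182, 1301 and 1249 at F140, 1317, 1214 and 1684 at P5, and 375, 229 and 360 at P173, a course like that given for mir-15b-p3. P173 against F91 changed by -4.01 for mir-15b-p3 and by -3.91 for miR-15b-5p, a difference of -0.10 ± 0.14 (SE). For mir-99b-p5 the change was -2.28 and for miR-99b -2.23 (difference -0.05 ± 0.16), and for mir-181b-2-p3 it was -2.67 and for miR-181b -3.02 (difference 0.35 ± 0.19). mir-4454-p5 changed by 2.39 and miR-4454 by 2.26 (difference 0.12 ± 0.54), and mir-5100-p3 by 1.39 and miR-5100 by 1.42 (difference -0.03 ± 0.29). At F140 against F91, mir-27b-p3 changed by 2.93 and miR-27b by 1.72 (difference 1.21 ± 0.47, adjusted p = 0.177, limma), and mir-451-p3 by 3.59 and miR-451 by 2.71 (difference 0.88 ± 1.21, adjusted p = 0.756). Over the 46 pairs, the changes P173 against F91 had the same sign in 44 and differed by a median of 0.25 on the log2 scale.

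The annotated 3p strand of miR-15b, the true opposite arm, was near the bottom of the scale on the same arrays. Its human probe read 0 to 16 units and its platypus probe 2 to 13 over the 12 arrays. Likewise the annotated miR-181b-2-3p read 0 to 7 units and miR-218-1-3p 1 to 21. The lowest p-values of the 46 pairs were those of a pair of mir-378 probes, mir-378f-p5 with miR-378f (unadjusted p = 0.00693, adjusted p = 0.0797) and mir-378d-1-p5 with miR-378d (unadjusted p = 0.0368, adjusted p = 0.318). At P5 against F140 alone, the fitted change was 4.70 for mir-378f-p5 and 0.64 for miR-378f, and their difference passed the test of that contrast (adjusted p = 0.0424, limma); since the 3 arrays of mir-378f-p5 at F140 read 7 units or less, its size is not a measured one.

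**Figure D3:**
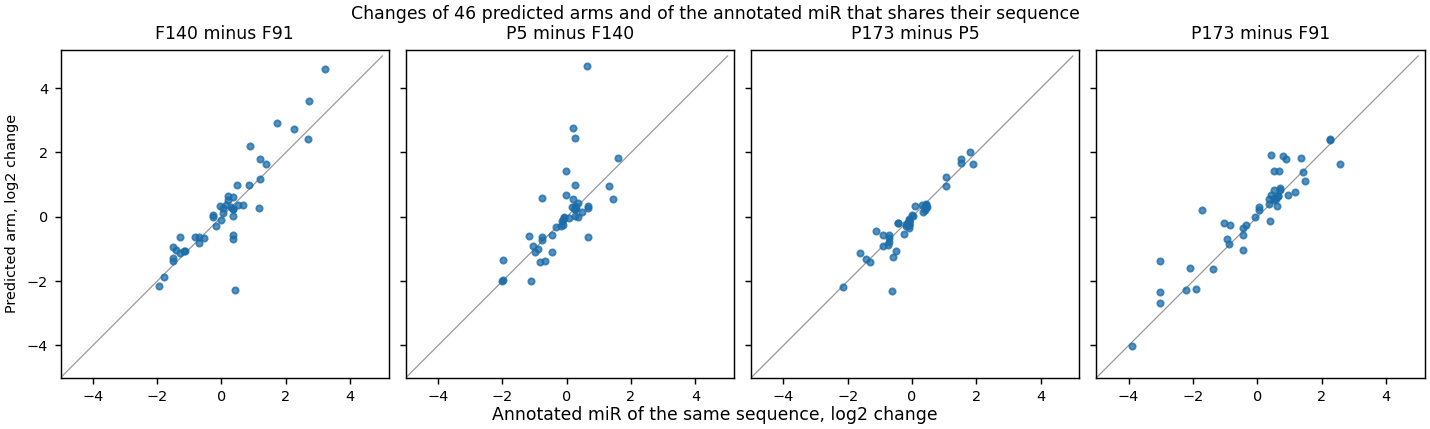
Log2 change of 46 predicted arms (y axis) against the log2 change of the annotated miR that shares their sequence (x axis), in a panel for each contrast between ages, with the line of equal change. Most points lie along the line (a median difference of 0.13 for P173 minus P5 and of 0.26 for F140 minus F91), and the point farthest above it, for P5 minus F140, is mir-378f-p5.

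The third comparison asked whether a predicted arm and an annotated miR of the other arm of the hairpin followed the same course. In 50 pairs judged probe by probe, 0 passed the F-test of the difference and 8 had an unadjusted p under 0.05 (limma, adjusted over 73 pairs; 2.74% called, both of them annotated pairs). For 36 of the 50, however, another probe of the partner name held the sequence of the predicted arm, and for 14 it did not (0 called, 3 unadjusted). The count was 4 without F91 replicate 1, 1 without F91 replicate 3, 7 on the scanner values or with values under 32 units set to 32, and 3 with a pseudocount of 1 in place of 0.1 (2 with 16).

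When the partner was judged by sequence over all its probes, a choice made after the data were seen, 21 pairs were left and 3 passed, with 18.2% called over the 44 pairs of that fit. Of the 3 (mir-218-1-p5, mir-324-p5 and mir-30c-p5), only mir-30c-p5 and its partner had every age with an array above the limit, and these calls were not recomputed with an array left out. Sequences of the hairpins mir-218-1 and mir-324 are shown for the pairing, with the seeds in capitals.
mir-218-1-p5: gAGGUAUGaggaaaacau
miR-218: uUGUGCUUgaucuaaccaugugguu
mir-324-p5: cGCAUCCCcuagggcau
miR-324-5p: cGCAUCCCcuagggcauuggug
miR-324-3p: cCACUGCCccaggugcugcugg
mir-324-p5 was the first part of the annotated miR-324-5p, so that its pair with miR-324-3p repeats an annotated pair. Both bases and seed of mir-218-1-p5 differed from those of miR-218, and the longest run of base pairs between them was 8.

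mir-218-1-p5, dim at F140 as given above, stood against miR-218 with 67, 38 and 2 units at F91, 98, 162 and 125.9 at F140, 33, 47 and 20 at P5, and 32, 5 and 14 at P173. The predicted probe was thus lowest at the age at which miR-218 was highest, and the F-test of the difference over the ages passed (adjusted p = 0.0449, limma). The name of miR-218 gives no arm, and the annotated miR-218-1-3p was a separate probe at 1 to 21 units. The pair is therefore not shown to join opposite arms. Because all arrays of mir-218-1-p5 at F140 were under 32 units, the test rests on values under the limit and no size of the difference is given. mir-324-p5 read 21, 20 and 14 units at F91, 40, 33 and 36 at F140, 13, 25 and 9 at P5, and 3, 7 and 10 at P173. miR-324-3p read 65, 62 and 64 units at F91, 26, 43 and 24 at F140, 28, 27 and 25 at P5, and 15, 18 and 21 at P173.

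The predicted arm of mir-324 was above 32 units only at F140, whereas F91 was the only age with every array of miR-324-3p above it. The F-test of their difference passed (adjusted p = 0.0374, limma), but again on values of which most were under the limit for the predicted arm, and its size is not given. mir-30c-p5, which holds the miR-30c strand, read 4963, 8926 and 6315 units at F91, 4990, 6040 and 4957 at F140, 5821, 6029 and 6900 at P5, and 6653, 4894 and 5090 at P173. miR-30c-1-3p read 30, 41 and 39 units at F91, 52, 51 and 26 at F140, 73, 83 and 67 at P5, and 130, 92 and 117 at P173. The predicted arm overlapped between all ages while miR-30c-1-3p at P173 stood above all its other arrays, and the difference of changes P173 against F91 was -1.87 ± 0.32 (SE; adjusted p = 0.00603; F-test, adjusted p = 0.0177, limma).

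The pair with the longest stem was mir-133c-p5 with miR-133c, of the muscle miR-133 family. mir-133c-p5 read 44, 12 and 37 units at F91, 29, 12 and 15 at F140, 50, 42 and 10 at P5, and 15, 2 and 24 at P173, under the limit on every array of F140 and P173 and on both sides of it at F91 and P5. miR-133c read 1094, 2167 and 845 units at F91, 3742, 2242 and 1755 at F140, 2549, 3148 and 3152 at P5, and 4493, 4818 and 4292 at P173. The F-test of their difference missed the threshold (adjusted p = 0.154, limma), and no size is given because mir-133c-p5 was under the limit at P173.

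**Figure D4:**
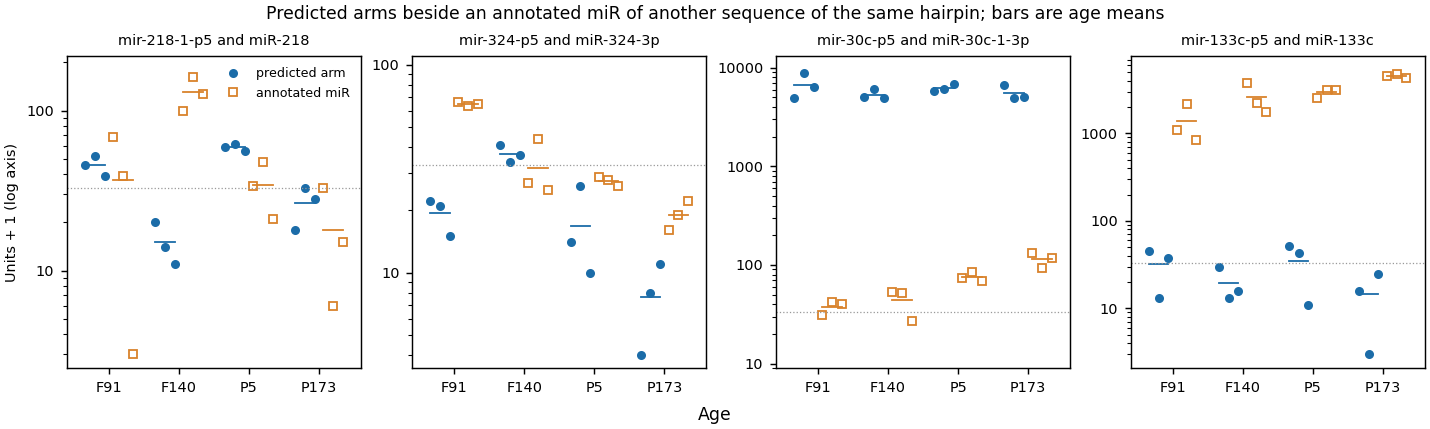
Units plus 1 (y axis, log scale) of 4 predicted arms (filled circles) and of an annotated miR of another sequence from the same hairpin (open squares), by age (x axis), 3 arrays each, with bars at the age means and a dotted line at 32 units. The course, not the height, can be compared between the 2 probes: mir-218-1-p5 is lowest at F140, where miR-218 is highest, and mir-30c-p5 is level while miR-30c-1-3p is highest at P173.

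Of the 10 names with the highest mean over the arrays, mir-16a-p5 passed the F-test and the other 9 did not, among them mir-30c-p5 given above. mir-133a-p5, with 16 identical bases in a row with the heart marker miR-133a, read 3635, 7551 and 7204 units at F91, 7133, 7024 and 8274 at F140, 7910, 10168 and 6827 at P5, and 9367, 11623 and 10297 at P173. F91 replicate 1 was its lowest array by far and F140 overlapped with F91 and P5, with means of 6130 ± 2168 (F91), 7477 ± 692 (F140), 8302 ± 1705 (P5) and 10429 ± 1134 units (P173; SD, n = 3 each). mir-23b-p3, which holds miR-23b-3p, read 4948, 5391 and 3841 units at F91, 5964, 5072 and 6153 at F140, 6328, 7428 and 6471 at P5, and 6899, 5883 and 7942 at P173. Its F91 arrays lay below those of P5 and P173.

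Of the names in this range without the sequence of an annotated miR, mir-1273e-p3, a human name, read 1742, 5100 and 8304 units at F91, 1593, 4656 and 2444 at F140, 3396, 2976 and 4340 at P5, and 3504, 4075 and 2044 at P173. The ages overlapped throughout, and F91 replicate 3 was its highest array. mir-716a-p5 read 506, 3926 and 11879 units at F91, 2445, 2847 and 2528 at F140, 1530, 1964 and 3801 at P5, and 1878, 6848 and 1322 at P173. mir-716a-p3 read 548, 1805 and 4810 units at F91, 810, 801 and 1862 at F140, 1822, 1715 and 2841 at P5, and 1550, 3240 and 1474 at P173. mir-716b-p3 read 783, 2335 and 4765 units at F91, 959, 1470 and 1876 at F140, 3444, 2209 and 3549 at P5, and 2377, 3497 and 1880 at P173. For all 3 mir-716 names both the lowest and the highest of the 12 arrays were F91 arrays, replicate 1 and replicate 3.

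mir-145-p5, which holds miR-145 of smooth muscle, read 2450, 2208 and 1867 units at F91, 2287, 2383 and 1846 at F140, 2042, 2034 and 1955 at P5, and 2100, 3052 and 2943 at P173. mir-145b-p3, also with the sequence of an annotated miR, read 2685, 1519 and 1472 units at F91, 2582, 1938 and 1532 at F140, 1817, 2218 and 1740 at P5, and 1685, 2801 and 2955 at P173. P173 replicate 1 lay within the range of the earlier ages for both probes. All 8 probes of the mir-145 hairpins had changes above 0 at P173 against P5, by a median of 0.38 on the log2 scale, and none passed the test. These 8 probes share most of their bases and are not separate observations.

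The largest fitted changes were in part those of dim probes. mir-21-p5 had the largest change F140 against F91, 4.59 ± 2.2 on the log2 scale (SE; adjusted p = 0.316, limma), from 51, 6 and 0 units at F91, 218.3, 44 and 45 at F140, 8, 58 and 16 at P5, and 22, 0 and 28 at P173. It had the largest change P173 against P5 too, -2.31. mir-6240-p3 had the largest change upward over the span, 4.77 ± 1.76 (SE; adjusted p = 0.15), with P173 at least 3.79-fold higher than F91 when counted against 32 units. It read 31, 28 and 0 units at F91, 29, 99 and 3 at F140, 101, 59 and 131 at P5, and 164, 169 and 64 at P173. Each had 1 array of F140 far above the other 2.

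A few hairpins supplied much of the set: mir-6240 26 of the 168 probes, the mir-378 hairpins 18, mir-716a and mir-716b 15, mir-1285 11, mir-574 8 and mir-145 8. mir-6240 and mir-716 are mouse and Tasmanian devil names of the array, and mir-6240 is in the list of hairpins that overlap other abundant RNA. The median of the 26 mir-6240 probes was 71.0, 137.0 and 104.0 units on the arrays of F91, 56.5, 318.0 and 70.0 at F140, 284.0, 176.0 and 435.0 at P5, and 458.0, 438.0 and 162.0 at P173. F140 replicate 2 stood several times above the other arrays of its age, and the lamb arrays were above F91 throughout.

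All 26 mir-6240 probes had changes above 0 at P173 against F91, with a median log2 change of 1.60, and 1 of the 26 passed the test. At an unadjusted p under 0.05 there were 16 of the 26, against 449 of the 1122 probes above the level. All 26 were also above 0 at P5 against F140, with a median of 1.35 and none called (limma). There 10 of the 26 had an unadjusted p under 0.05, against 312 of the 1122. Most mir-6240 probes are variants of the same stretch of bases, so they are not separate observations and these counts are descriptions. The median of the 15 mir-716 probes was 405.0, 1805.0 and 3936.0 units on the arrays of F91, 625.0, 801.0 and 1637.0 at F140, 1530.0, 1494.0 and 2799.0 at P5, and 1307.0, 2477.0 and 1229.0 at P173. The 3 arrays of F91 thus spanned the range of all the other ages, and none of the 15 probes passed any test (limma; 1 with an unadjusted p under 0.05 in the F-test).

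The 12 control entries for 5S ribosomal RNA on the array had medians of 7115.0, 12241.5 and 22734.5 units on the arrays of F91, 6556.5, 8991.0 and 10836.5 at F140, 9854.5, 8804.5 and 10560.5 at P5, and 7302.0, 16938.0 and 9148.0 at P173. Like the mir-716 probes, they were highest on F91 replicate 3 at F91, on F140 replicate 3 at F140 and on P173 replicate 2 at P173. What part this had in the values of mir-716 and mir-6240 was not tested. The 11 mir-1285 probes were above 0 at P5 against F140 in all cases (median log2 change 1.13), of which 1 passed. Several of the 11 overlap in sequence. Of the 1122 probes above the level, 559 were above 0 in this contrast and 2.23% were called higher, against 0.841% of all probes. The probe that passed, a variant of mir-1285-p5, shares 18 bases in a row with an annotated miR-1285 probe. The others hold another sequence. The probe that passed read 565, 504 and 413 units at F91, 207, 345 and 290 at F140, 823, 684 and 1000 at P5, and 543, 469 and 383 at P173 (P5 against F140 log2 change 1.59, adjusted p = 0.0181, limma).

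**Figure D5:**
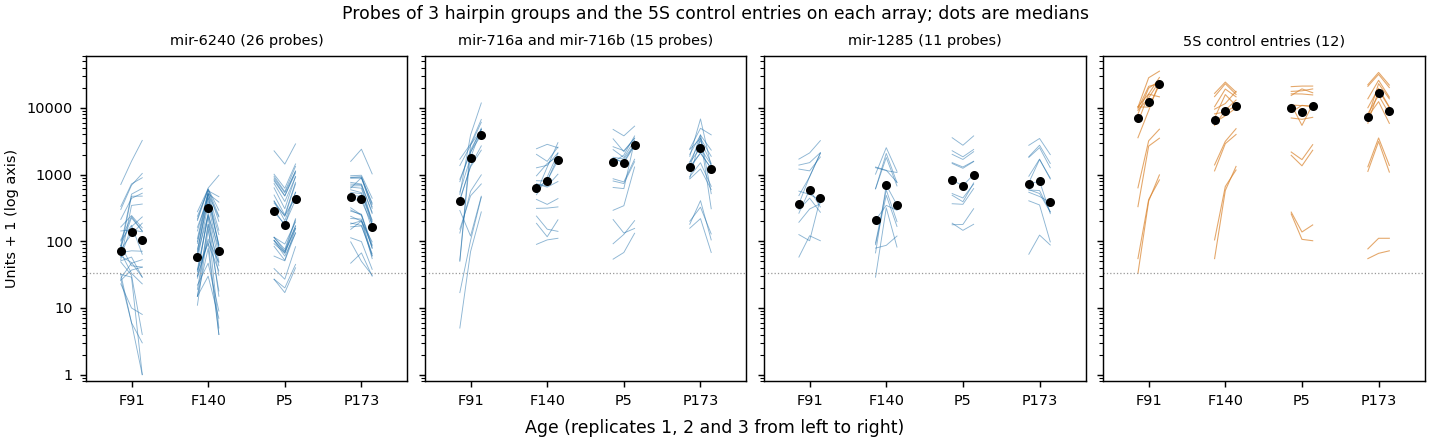
Units plus 1 (y axis, log scale) of the probes of mir-6240, of mir-716a with mir-716b, of mir-1285 and of the 5S control entries, on the 3 arrays of each age (x axis, replicates 1 to 3 from left to right). Each line is a probe over the arrays of an age, black dots are the medians given in the text, and the dotted line is at 32 units; F140 replicate 2 stands out for mir-6240 and F91 replicate 3 for mir-716 and 5S.

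The spread within ages differed between these groups. The median SD within ages on the log2 scale was 1.02 over the mir-6240 probes, 0.79 over mir-716, 0.65 over mir-1285 and 0.51 over the mir-378 probes, against 0.25 over the mir-145 probes. By class it was 0.44 for the names of the same sequence and 0.83 both for names of another sequence and for names with no annotated miR. Over the 168 probes it was 0.77, against 0.61 over all 1122 probes above the level. The 18 mir-378 probes were all above 0 at P5 against F140 (median 1.06), with 1 call. They were also all above 0 at P173 against F91 (median 0.87), with none called (limma). Over the span 9 of the 18 had an unadjusted p under 0.05, against 449 of the 1122 probes above the level. The mir-378 probes share most of their bases, so they are not separate observations and these counts are descriptions.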

How the data were processed

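The authors hybridised total RNA to a custom miRNA array (3 arrays per age) and deposited scanner intensity values per spot (not background corrected) and a table of lowess-normalised values. The deposited score in that table is a background-corrected linear signal per probe in whole numbers; the series' value table holds the same intensity values with decimals, within 0.5 units. Units printed with a decimal are from this second table. Precision rests on 3 arrays per age. The main values were log2(value + 0.1), modelled in R 4.3.3 by limma 3.58.1 (lmFit, eBayes with a trend) over 12 arrays without a filter, for 3091 probes without 55 control entries, with an F-test over 4 ages and 4 contrasts, and Benjamini-Hochberg adjustment. Tables were handled in Python 3.11.15 with pandas 2.3.3 and numpy 2.4.6, and drawn with matplotlib 3.10.9. Both fits were tested on simulated data.

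Each name was represented by 1 probe, the exact sequence first, then ovine, bovine, any other, then the brightest. Values per array are given for names past the F-test, the 10 brightest, and pairs past the test of the difference; the largest changes are named, and mir-708-p5, mir-558-p5, mir-133c-p5 and the mir-1285 probe were added after their values were seen. For an age with all 3 arrays under 32 units, a fold is a bound against 32 units. Samples are separate animals by the labels, but litters are not given, and the P5 twins may include siblings, so p-values measure the spread between these samples. Same-numbered F91 and F140 samples correlated by 0.405 to 0.481 in their deviations from the age means, and all other ages by -0.376 to 0.3. Correlations between different numbers were not given, and the labels state no pairing. The main fit used no pairing, and the replicate number entered only as a block in alternative fits. Members, lists and tests were chosen with earlier results of these data known. Hairpin sequences and genome positions were not used here.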

Additional observations from a re-analysis of the deposited data

Results flagged for a closer look

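The scanner files held 7 probes of the array that had no row in the normalised table, and 3 of them read above every empty spot on 12 of 12 arrays. Their signal lies in data that the comparisons do not use, and it is given here for that reason. miR-15b-5p of human, the strand that the probe mir-15b-p3 also carries, had a median scanner intensity of 1450.1 (239.5 to 3631.6 over the arrays). miR-1 of cattle had a median of 10597.8 (210.1 to 28413.7) and miR-199a-3p of human a median of 1435.0 (178.5 to 3368.5). Empty spots had a median of 75.8 on the same scale, which is not background corrected. With 3 arrays per age, no array was tested as standing apart within an age.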

How the results depend on the processing

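Of 22 called values of named predicted arms, 4 kept their call under every alternative run (P173 against F91 for mir-15b-p3, mir-181b-2-p3, mir-99b-p5 and mir-4454-p5), and over 536 values recomputed for the 22, 398 stayed past the threshold, 138 missed it and 0 turned round; 40 of 1986 values not called became called. Leaving out 1 array at a time, counts of names ranged from 8 to 22 for the F-test. They ranged from 7 to 15 for P173 against F91, from 1 to 5 for P173 against P5, from 0 to 11 for P5 against F140 and from 1 to 17 for F140 against F91, and pairs called from 0 to 4 (opposite arms) and 0 to 3 (same sequence). Without F91 replicate 3 and P173 replicate 2 together, the F-test gave 6, P173 against F91 5, P173 against P5 1 and F140 against F91 3, with 1 opposite pair. Without the trend of the variance on the level, the F-test gave 3, P173 against F91 5, F140 against F91 1 and both other contrasts 0. With only the 2 ages fitted, F140 against F91 gave 1, P5 against F140 1 and P173 against F91 5. Tested among probes above the level alone, the counts were 16 (P173 against F91), 7 (P5 against F140) and 6 (P173 against P5). The scanner values gave 8 for P5 against F140, 6 for P173 against P5, 7 opposite pairs and 5 same-sequence pairs; they were used as given, quantile normalised, without normexp. Values under 32 units set to 32 gave 5 for P173 against P5, 7 opposite pairs and 4 same-sequence pairs. A pseudocount of 16 gave 8 for P5 against F140, 2 opposite pairs and 1 same-sequence pair, a pseudocount of 1 gave 3 opposite pairs, and the GC trend removed gave 1 for P173 against P5. Partners judged by sequence gave 3 pairs, among them that of mir-218-1-p5, not shown to join opposite arms. The cause of these differences was not tested. A limit of 32 units on all 12 arrays left 103 probes.

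With the replicate number as a block over 4 ages, the F-test gave 11 names, P173 against F91 9, P173 against P5 5, F140 against F91 9 and P5 against F140 2, with 0 pairs called of either kind; with F140 and F91 alone fitted, the block gave 0. The block with the GC trend removed gave 14 for the F-test. In that fit over 4 ages without the GC correction, the block ended the calls of mir-218-1-p5 (P5 against F140) and mir-320d-2-p3 (F140 against F91), added those of mir-4454-p3 and mir-4454-p5 (P173 against P5), and changed no other call among the named values. The one-way test of the methods gave 11 names.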
